A study of Mus musculus with 32 samples.

Results

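The comparison covers 4 libraries of primary sternal chondrocytes labelled NAMPT flox (Nampt f/f) that received an adenovirus expressing Cre, 2 with IL-1β (IL-1b in the labels) and 2 without, out of 32 libraries in the series. They were chosen by genotype and treatment labels alone, and were read against the 4 libraries of the same genotype that received an adenovirus expressing GFP, again 2 with and 2 without IL-1β. All cells were of strain C57BL/6, were not passaged, were infected for 24 h and were then cultured for 24 h with IL-1β at 10 ng/mL or without it. Every NAMPT flox library, including the GFP controls, comes from cells that carry the floxed allele and met an adenovirus. The Cre virus was given only to cells with a floxed gene (NAMPT flox, LDHA flox and NFKBIZ flox), so loss of the gene and the Cre virus itself cannot be told apart within one line. The age of the animals and the number of animals behind a library are not given in the labels.

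IL-1β is an inflammatory cytokine that signals in chondrocytes through NF-κB and MAP kinases, and it is known in cartilage for inducing matrix-degrading enzymes, chemokines and Il6 while lowering the transcripts of cartilage matrix. NAMPT makes nicotinamide mononucleotide from nicotinamide, the rate-limiting step by which most cells recycle NAD, the cofactor that glycolysis, lactate dehydrogenase and the respiratory chain share. IκB-ζ, the product of Nfkbiz, is an atypical IκB protein that NF-κB target genes such as Lcn2 depend on. The question is which of the changes that IL-1β brought in GFP cells were still there after Nampt was deleted, which were lost, and which were seen only then.

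Library totals ran from 15830658 to 39959888 counted reads. Nampt (ENSMUSG00000020572, chromosome 12, 32820335 to 32853369, GRCm38) stood at 61.1 and 56.2 CPM (a gene's reads scaled to a common library size, here with TMM factors) in the 2 GFP libraries and at 69.9 and 72.0 with IL-1β. After Cre it stood at 6.86 and 7.03 CPM, and at 6.05 and 4.88 with IL-1β. All 4 Cre libraries were below all 4 GFP libraries, with a log2 difference of -3.09 without IL-1β (adjusted p = 2.9e-24 by edgeR's quasi-likelihood test, as are all adjusted p-values here unless another tool is named). The 13 chondrocyte markers summed to between 72890 and 74734 CPM in GFP cells and to between 51564 and 51671 CPM in Cre cells without IL-1β. With IL-1β the sums were 27984 to 28334 CPM in GFP cells and 17038 to 17632 CPM in Cre cells. The cells thus carried chondrocyte transcripts in all 4 groups, and in bulk RNA fewer cells of a type and less RNA per cell cannot be told apart.

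Markers of other cell types were also counted. The 15 leukocyte markers summed to between 21.8 and 24.5 CPM over the libraries without IL-1β and to between 34.1 and 40.7 CPM over those with it, and Ptprc, which all leukocytes carry, did not pass 0.60 CPM in any library. The 9 endothelial markers summed to between 8.68 and 13.1 CPM in GFP cells and to between 18.0 and 32.9 CPM in Cre cells, and Kdr alone made up 10.6 to 23.1 CPM of the latter. The 13 fibroblast and perichondrium markers summed to between 5372 and 5548 CPM in GFP cells, 4136 and 4246 CPM in GFP cells with IL-1β, 4443 and 4501 CPM in Cre cells and 2722 and 2743 CPM in Cre cells with IL-1β. The skeletal muscle markers (12), osteoblast markers (8) and adipocyte markers (8) summed to no more than 130 CPM, 112 CPM and 37.3 CPM in any library. No marker of these lists was at 0 in all 8 libraries.

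Keratins stood apart in the Cre libraries, a family examined after its values were seen. Krt7 was at 1.35 and 2.23 CPM in GFP cells and at 38.2 and 38.6 CPM in Cre cells without IL-1β, scaled over the 24 floxed libraries. Of 53 keratin genes 17 were tested, and 13 were higher after Cre than after GFP without IL-1β and none was lower, where 13.2% of all genes tested were higher. Krt8, Krt18 and Krt19, which form the intermediate filaments of simple epithelia, did the same, as the plot of keratin levels shows. Their part in the results that follow was not tested, and values from NFKBIZ flox cells, in which Krt8, Krt18 and Krt7 did not pass 1.78 CPM in all 8 libraries, are given at the end.

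**Figure D1:**
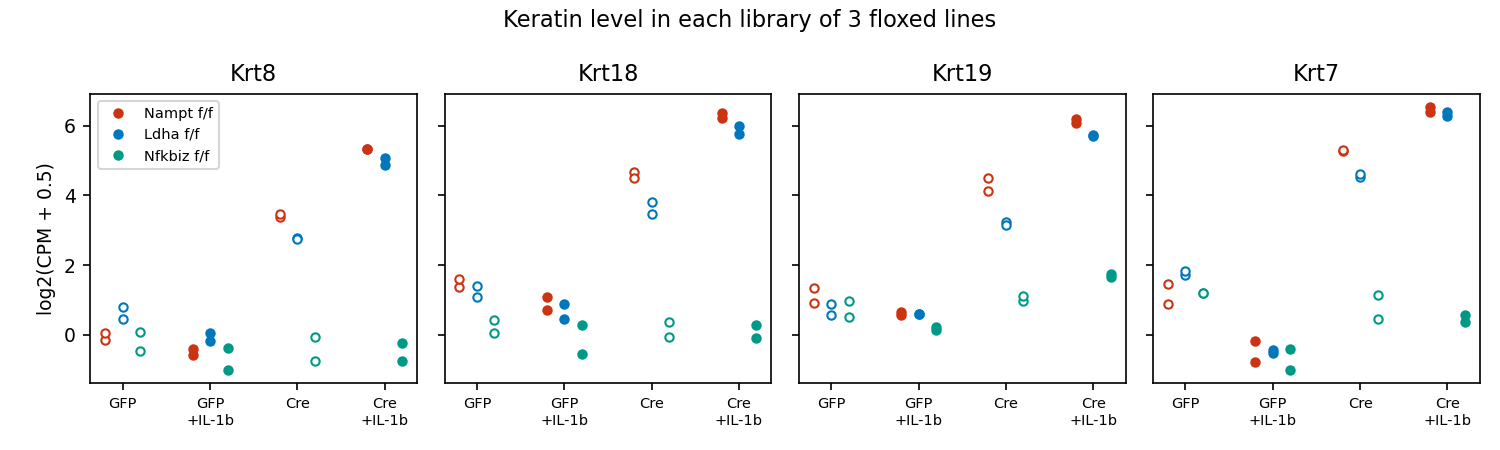
Level of 4 keratins as log2(CPM + 0.5) (vertical axis) in each library (points, 2 per group) of the 3 floxed lines under GFP virus or Cre virus without (open) and with (filled) IL-1β. In Nampt f/f and Ldha f/f cells the Cre libraries lie above the GFP libraries for all 4 genes, whereas in Nfkbiz f/f cells no library passes 2.83 CPM, the level of Krt19 with IL-1β after Cre.

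More genes passed the test for a change with IL-1β after Cre than after GFP. Depth differed between the arms as well. With IL-1β the totals were 23783890 and 15830658 counted reads after GFP and 33147423 and 22060320 after Cre. Without IL-1β they were 39959888 and 19860937 after GFP and 36262201 and 25094036 after Cre. The part of depth in the numbers of calls was not tested. Of 16136 genes tested, 4786 rose and 4017 fell with IL-1β after Cre (29.7% and 24.9%), against 3701 and 3794 after GFP (22.9% and 23.5%), at an adjusted p of 0.05 or less. Changes of 2-fold or more numbered 1538 higher (9.53%) and 984 lower (6.1%) after Cre, and 1297 higher (8.04%) and 603 lower (3.74%) after GFP. The response itself was tested for a difference between the arms, and 5648 genes (35.0%) differed, 3035 being more positive and 2613 more negative after Cre. In a fit without a block for the replicate, 3552 genes differed. Each gene was then put in a class by these 3 tests.

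A change persisted in 4351 genes (27.0%), called in both arms with the same sign, which is 58.1% of the 7495 genes called after GFP and 49.4% of the 8803 called after Cre. Among the 2201 that rose in both arms, the response was smaller after Cre in 365 and larger in 500, and for 1336 the difference was not called. Among the 2150 that fell in both arms, it was smaller in 233, larger in 542 and not called as different in 1375. A change vanished in 1156 genes (7.16%), called after GFP and not after Cre with a called difference, 579 of them rises and 577 falls. Another 1176 genes lost only their call, with no called difference. A change appeared in 1891 genes (11.7%), 1133 rising and 758 falling after Cre, and 1749 more gained only a call. In 812 genes (5.03%) the response reversed, with 520 rising after Cre and falling after GFP and 292 the other way. The fit held the library set (the numbering series of a library's title, 1 replicate of each NAMPT flox group in each) as a block, and without it the vanished, appeared and reversed genes numbered 738, 1422 and 441.

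**Figure D2:**
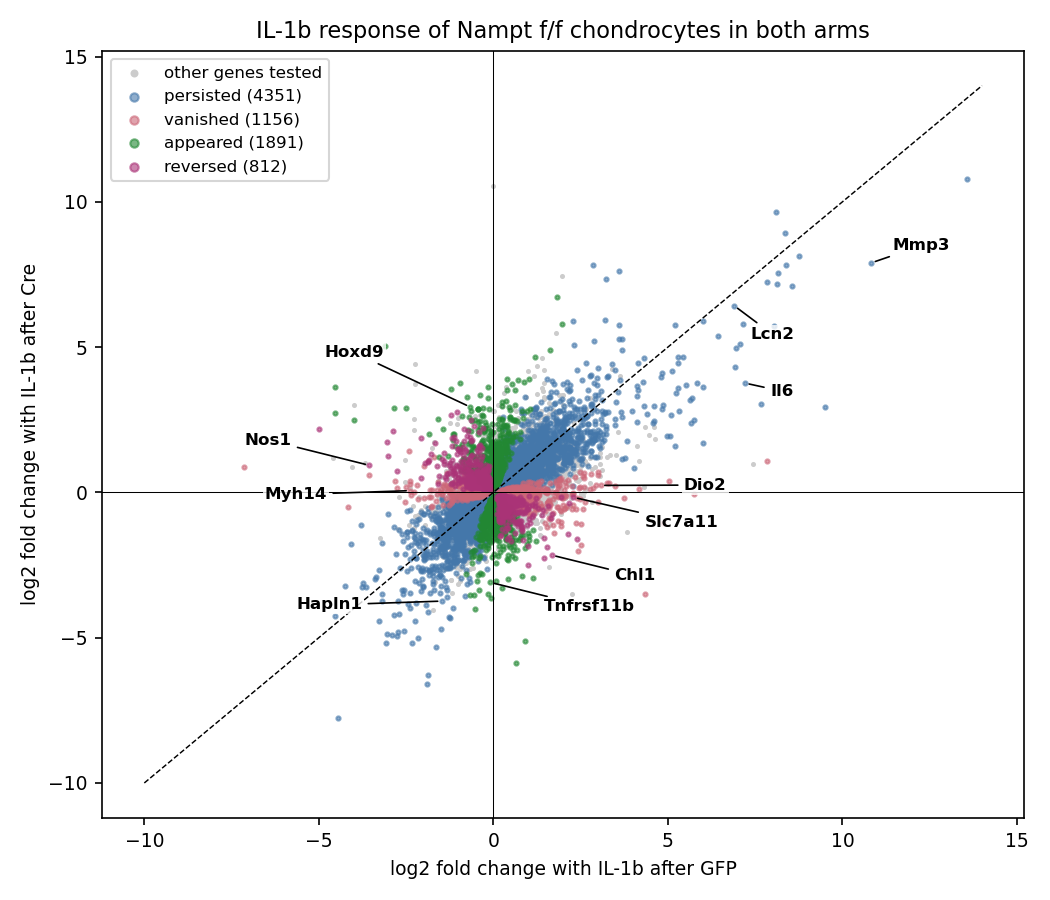
Log2 fold change with IL-1β after GFP (horizontal axis) and after Cre (vertical axis) for each of the 16136 genes tested in Nampt f/f cells, coloured by class, with equal responses on the dashed line. Mmp3, Il6 and Lcn2 lie to the right of the dashed line and high above 0, Dio2 and Myh14 lie near 0 on the vertical axis, and Nos1 and Chl1 lie in opposite quadrants.

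The inflammatory transcripts that define the IL-1β response rose in both arms, several of them to a lower level after Cre. Mmp3, stromelysin 1, which cleaves proteoglycans, was at 0.36 and 0.76 CPM in GFP cells and at 913 and 893 CPM with IL-1β. After Cre it went from 0.64 and 0.72 CPM to 166 and 158 CPM. The log2 fold change was 7.90 ± 0.09 (SE) after Cre against 10.83 ± 0.09 after GFP, and the difference was -2.93 ± 0.31 (adjusted p = 1.4e-09). Il6, the cytokine interleukin 6, went from 0.21 and 0.22 to 32.2 and 31.4 CPM after GFP and from 0.32 and 0.32 to 4.51 and 4.26 CPM after Cre. Both Cre libraries with IL-1β were above both without it and far under the GFP libraries with IL-1β, and the responses differed by -3.45 ± 0.53 (adjusted p = 2.4e-06). Mmp13, the main collagenase of cartilage, went from 46.5 and 44.5 to 213 and 211 CPM after GFP and from 18.5 and 16.7 to 39.8 and 37.6 CPM after Cre. Its level with IL-1β after Cre was thus under its level in GFP cells without IL-1β, while its log2 fold change was still 1.13 ± 0.07, a difference of -1.09 ± 0.09 (adjusted p = 3.6e-12).

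The sequences before the starts of genes that rose in both arms are shown because NF-κB and AP-1 are the factors that IL-1β is known to activate. The windows are the 250 bases before the RefSeq start on GRCm38.p6, 5′ to 3′ on the gene's strand. Capitals mark the NF-κB consensus, searched on both strands, in Il6 and Cxcl1 (11 capitals in Cxcl1, where matches overlap) and the AP-1 letters TGANTCA in Il6 and Mmp3. They are chr5:30012864-30013113 on the + strand for Il6, chr5:90890995-90891244 on the + strand for Cxcl1 and chr9:7445572-7445821 on the + strand for Mmp3. The first base of the capitals lay 44 bases before the start in Il6 for NF-κB, 71 bases in Cxcl1, and 46 bases in Mmp3 for AP-1, while the AP-1 letters of Il6 lay 249 bases before it.
Il6: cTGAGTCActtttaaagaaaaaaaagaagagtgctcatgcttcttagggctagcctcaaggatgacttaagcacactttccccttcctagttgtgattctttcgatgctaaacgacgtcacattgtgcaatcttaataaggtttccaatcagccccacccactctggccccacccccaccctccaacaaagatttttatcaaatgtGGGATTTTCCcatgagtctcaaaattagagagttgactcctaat
Cxcl1: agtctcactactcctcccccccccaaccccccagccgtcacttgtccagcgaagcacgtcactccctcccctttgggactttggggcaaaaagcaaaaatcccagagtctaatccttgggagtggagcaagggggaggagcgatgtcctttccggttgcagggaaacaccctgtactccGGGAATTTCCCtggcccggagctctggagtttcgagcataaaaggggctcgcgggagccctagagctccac
Mmp3: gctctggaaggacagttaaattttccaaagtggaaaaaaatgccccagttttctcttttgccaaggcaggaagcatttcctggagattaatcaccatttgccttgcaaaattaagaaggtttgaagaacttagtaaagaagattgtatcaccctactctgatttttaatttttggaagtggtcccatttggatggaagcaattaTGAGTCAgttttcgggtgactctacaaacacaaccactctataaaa

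The NF-κB consensus was found in 1003 of 11335 such windows of genes tested (8.85%), in 12.6% of 1640 genes that rose in both arms and in 18.7% of the 187 among them with a log2 fold change of 2 or more after Cre. The AP-1 letters were found in 4.48%, 6.52% and 15.5% of the same windows. Windows of vanished rises held the NF-κB consensus in 9.65% of 404 and the AP-1 letters in 3.71%. Those of rises that appeared after Cre held them in 9.3% and 3.7% of 892. These shares describe letters in a window and were not tested.

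Among 29 chemokine genes, the attractants of leukocytes, 17 were tested. IL-1β raised 15 (88.2%) and lowered 1 (5.88%) after GFP, where 22.9% and 23.5% of all genes changed so. It raised 13 (76.5%) and lowered 2 (11.8%) after Cre, where 29.7% and 24.9% did. The response was more negative after Cre in 9 and more positive in 1, against 16.2% and 18.8% of all genes tested. Cxcl1 went from 0.60 and 0.98 to 277 and 276 CPM after GFP and from 0.37 and 0.56 to 61.8 and 64.1 CPM after Cre. Cxcl5 went from 3.36 and 3.90 to 297 and 317 CPM after GFP and from 1.87 and 2.40 to 91.4 and 83.8 CPM after Cre, a difference of -1.04 ± 0.18 (adjusted p = 1.3e-05). Both neutrophil attractants thus persisted at lower levels. With IL-1β, Cxcl2 reached 51.6 and 57.7 CPM in GFP cells and 17.1 and 19.4 CPM in Cre cells, but its counts without IL-1β summed to 9 and 2, so no fold is given. Cxcl16, the membrane-bound chemokine, went the other way, from 5.09 and 6.03 to 28.4 and 27.4 CPM after Cre against 2.32 and 2.28 to 3.204 and 5.07 CPM after GFP. It was higher with Cre in both conditions, and its response was larger by 1.56 ± 0.25 (adjusted p = 6.2e-06). Ccl9 was not called after GFP (11.2 and 9.10, and 6.91 and 9.16 CPM) and fell from 4.53 and 4.64 to 1.02 and 1.58 CPM after Cre.

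Of 30 cytokine and growth factor genes 25 were tested. After GFP 24 rose and none fell, and after Cre 17 rose and 1 fell, with the median log2 fold change at 1.77 and 1.13 and that of all genes at 0.00 and 0.03. The response was more negative after Cre in 9 (36.0%) and more positive in 2 (8.0%), against 16.2% and 18.8% of all genes. Lif, a cytokine of the Il6 family, reached 122 and 122 CPM with IL-1β after GFP and 106 and 111 CPM after Cre. The groups with IL-1β thus lay close together, but Cre cells without IL-1β already stood at 15.3 and 16.1 CPM against 7.82 and 7.53 CPM in GFP cells. Inhba, which encodes the subunit of activin A, rose from 14.7 and 11.5 to 38.2 and 39.4 CPM after GFP. After Cre it was at 9.99 and 11.3 CPM without and 12.3 and 10.5 CPM with IL-1β, so its rise vanished. Tnf, tumour necrosis factor, was at 0.62 and 0.26 CPM with IL-1β after GFP and at 6.98 and 7.43 CPM with IL-1β after Cre. Its counts without IL-1β summed to 2 in each arm, and the difference of its responses was not called (adjusted p = 0.076).

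The NF-κB subunits, IκB proteins and feedback regulators rose in most members in both arms. Of 35 tested, 31 (88.6%) rose and none fell after GFP, where 22.9% and 23.5% of all genes did. After Cre 32 (91.4%) rose and 1 fell, where 29.7% and 24.9% did. The difference was called in 19, more positive in 8 (22.9%) and more negative in 11 (31.4%), against 18.8% and 16.2% of all genes. Nfkbiz itself went from 22.7 and 25.5 to 210 and 214 CPM after GFP and from 16.0 and 17.7 to 71.8 and 64.1 CPM after Cre. The log2 fold change was 2.02 ± 0.07 after Cre and 3.15 ± 0.07 after GFP, a difference of -1.13 ± 0.10 (adjusted p = 2.7e-11). Bcl3, an IκB family coactivator, had a smaller response after Cre, a difference of -1.08 ± 0.11, with 94.2 and 102 CPM against 112 and 110 CPM with IL-1β. Tnip1, an inhibitor of NF-κB signalling that binds A20, had a larger one, from 36.7 and 35.9 to 125 and 130 CPM after Cre against 38.0 and 36.0 to 59.3 and 56.2 CPM after GFP. Socs3, which limits signalling by Il6 family cytokines, rose in both arms and less after Cre, by 0.77 ± 0.06 against 1.51 ± 0.06 on the log2 scale.

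Of 26 acute-phase, antimicrobial and complement genes tested 16 persisted, 13 with a smaller response after Cre and none with a larger one. After GFP 20 (76.9%) rose and none fell, where 22.9% and 23.5% of all genes did. After Cre 17 (65.4%) rose and 3 (11.5%) fell, where 29.7% and 24.9% did. Among all 2201 persisted rises, 365 were smaller after Cre and 500 larger. Lcn2, the siderophore-binding lipocalin 2, went from 25.5 and 24.6 to 2941 and 3075 CPM after GFP and from 19.0 and 17.8 to 1558 and 1612 CPM after Cre. The rise after Cre was large, 6.42 ± 0.05 on the log2 scale, and below that after GFP by a difference of -0.48 ± 0.06 (adjusted p = 6.3e-08). Saa3, a serum amyloid A protein, reached 1322 and 1214 CPM after GFP and 586 and 514 CPM after Cre, and the call on its difference (-0.63 ± 0.16) was lost without the block (adjusted p = 0.067), with voom weights (adjusted p = 0.052) and without Cre replicate 2 (adjusted p = 0.152). Slpi, a secreted inhibitor of leukocyte proteases, reached 464 and 530 CPM after GFP and 411 and 429 CPM after Cre, from 3.31 and 4.28 and from 11.0 and 13.5 CPM. The metallothioneins Mt1 and Mt2, which bind zinc and copper, rose less after Cre, by -1.19 ± 0.05 and -1.37 ± 0.05 relative to GFP. Cp, ceruloplasmin, rose from 122 and 106 to 282 and 251 CPM after GFP and went from 69.4 and 61.0 to 58.4 and 55.2 CPM after Cre.

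Vnn3, a vanin, had no count in any of the 4 libraries without IL-1β and 55.8 and 56.3 CPM with IL-1β after GFP against 8.29 and 8.18 CPM after Cre. Against a floor of 3 counts per library its rise was at least 344-fold after GFP and at least 68.2-fold after Cre. Acod1, which makes itaconate from an intermediate of the citric acid cycle, had no count in the other 6 libraries and 6.33 and 7.91 CPM with IL-1β after Cre, a rise of at least 52.8-fold. It was called after Cre only, and the difference was not called (adjusted p = 1), since the other groups were at 0.

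The enzymes that make nitric oxide, prostaglandins and reactive oxygen split. Of 26 tested, 17 (65.4%) rose and 3 (11.5%) fell after GFP, where 22.9% and 23.5% of all genes did. After Cre 19 (73.1%) rose and 3 (11.5%) fell, where 29.7% and 24.9% did. The difference was called in 18. It was more positive in 6 (23.1%), near the 18.8% of all genes, and more negative in 12 (46.2%), against 16.2%. Ptgs2, cyclooxygenase 2, went from 48.4 and 45.6 to 401 and 392 CPM after GFP and from 24.9 and 21.3 to 86.9 and 81.8 CPM after Cre. Sod2, the mitochondrial superoxide dismutase, went from 62.4 and 63.2 to 355 and 358 CPM after GFP and from 49.1 and 50.2 to 110 and 107 CPM after Cre. The level with IL-1β after Cre was thus between the 2 GFP groups for both genes. Hmox1, heme oxygenase 1, went from 515 and 505 to 1529 and 1436 CPM after GFP and from 372 and 373 to 415 and 389 CPM after Cre. Nos2, the inducible nitric oxide synthase, reached 48.2 and 51.9 CPM after GFP and 15.8 and 17.4 CPM after Cre, with 10 and 1 counts in all without IL-1β. Nos1, the neuronal nitric oxide synthase, reversed: it fell from 17.9 and 15.2 to 1.41 and 1.43 CPM after GFP and rose from 9.21 and 8.91 to 17.1 and 17.5 CPM after Cre. The GFP groups did not overlap and neither did the Cre groups, and the responses differed by 4.48 ± 0.22 (adjusted p = 7.6e-18).

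The matrix-degrading enzymes and their inhibitors differed gene by gene. Of 35 tested, 18 (51.4%) rose and 10 (28.6%) fell after GFP, where 22.9% and 23.5% of all genes did, and 20 (57.1%) rose and 10 (28.6%) fell after Cre, where 29.7% and 24.9% did. The falls thus lay near the background. The difference was more positive in 9 and more negative in 9 (25.7% each), against 18.8% and 16.2% of all genes. Mmp9, gelatinase B, went from 0.96 and 0.76 to 7.12 and 5.65 CPM after GFP and from 0.96 and 0.48 to 28.9 and 27.6 CPM after Cre. Its response after Cre was larger by 2.35 ± 0.35 (adjusted p = 1.4e-06), opposite in sign to the differences of Mmp3 and Mmp13. Adamts5, an aggrecanase, reversed: it rose from 34.9 and 32.1 to 62.2 and 56.4 CPM after GFP and fell from 21.99 and 21.1 to 9.34 and 9.72 CPM after Cre. Adamts1 was not called after GFP (168 and 164 CPM without, 157 and 159 CPM with IL-1β) and fell from 117 and 115 to 57.2 and 61.3 CPM after Cre. Mmp16, a membrane-bound metalloproteinase, fell in both arms and further after Cre, by -2.53 ± 0.10 against -0.91 ± 0.08 on the log2 scale.

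Most cartilage matrix genes and chondrocyte regulators fell in both arms, and more of them fell further after Cre than less, as did all persisted falls. Of 38 tested, 32 (84.2%) fell and 4 (10.5%) rose after GFP, where 23.5% and 22.9% of all genes did. After Cre 33 (86.8%) fell and 2 (5.26%) rose, where 24.9% and 29.7% did. Of the 33 that persisted, 21 had a larger response after Cre and 8 a smaller one. Among all 2150 persisted falls 542 were larger after Cre and 233 smaller. Acan, aggrecan, fell from 6288 and 6136 to 1537 and 1581 CPM after GFP and from 4034 and 4079.6 to 872 and 895 CPM after Cre. Col2a1, type II collagen, fell from 53280 and 55325 to 21695 and 21498 CPM and from 38412 and 38493 to 13291 and 12828 CPM. For both genes Cre cells were lower than GFP cells already without IL-1β, and the responses were close, -2.20 ± 0.03 against -1.99 ± 0.03 for Acan and -1.56 ± 0.02 against -1.33 ± 0.02 for Col2a1. The call on the difference for Acan was lost without the block (adjusted p = 0.051) and over the 24 floxed libraries (adjusted p = 0.304), where that for Col2a1 was lost too (adjusted p = 0.124). Hapln1, the link protein that joins aggrecan to hyaluronan, fell from 745 and 732 to 264 and 268 CPM after GFP and from 365 and 368 to 28.8 and 25.8 CPM after Cre, a difference of -2.27 ± 0.06 (adjusted p = 7.7e-25). Epyc, the small leucine-rich proteoglycan epiphycan, fell from 293 and 256 to 165 and 156 CPM and from 205 and 181 to 32.5 and 27.5 CPM. Sox6, a transcription factor of the chondrocyte programme, fell from 192 and 183 to 104 and 111 CPM and from 128 and 127 to 27.0 and 25.8 CPM. Cnmd, chondromodulin, and Matn3, matrilin 3, fell to 85.3 and 77.4 CPM and to 11.6 and 12.4 CPM with IL-1β after Cre. The lowest of the 4 groups was the Cre group with IL-1β in each of these genes, with no overlap.

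Large falls after Cre among persisted genes included other secreted matrix proteins. Ogn, osteoglycin, and Omd, osteomodulin, both small leucine-rich proteoglycans, fell from 84.8 and 82.6 to 4.26 and 3.43 CPM and from 21.1 and 17.3 to 0.60 and 0.66 CPM after Cre. After GFP they fell from 199 and 178 to 39.2 and 41.4 CPM and from 48.2 and 47.4 to 6.87 and 7.27 CPM. Bmp3 fell from 2.68 and 3.00 to 0.17 and 0.088 CPM after Cre against 8.62 and 6.94 to 2.95 and 3.77 CPM after GFP. Panx3, a pannexin of cartilage and bone, fell from 21.99 and 24.5 to 0.88 and 0.57 CPM after Cre. Tox, a nuclear HMG-box protein, fell from 38.6 and 47.8 to 3.32 and 3.96 CPM after Cre and from 103 and 111 to 57.0 and 65.0 CPM after GFP, and it overlaps Gm11802 on the other strand. Use of strand in the counting is not stated, so reads of such pairs cannot be told apart, which also holds for Lrrc17, Dio2, Dnmt3l, Sh3tc1, Sybu, Fat4, Padi2, Cxcl16, Epyc, Bcl3, Cp, Nos1, Shmt2 and Sirt2. Lrrc17 and Cfap70 changed by -5.17 ± 0.11 and -5.02 ± 0.29 on the log2 scale after Cre and by -3.07 ± 0.08 and -2.15 ± 0.21 after GFP.

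Some persisted genes had a more positive response after Cre, either a larger rise or a smaller fall. Kif1a, a kinesin of axonal transport, rose further after Cre, from 18.4 and 18.9 to 113 and 113 CPM, against 8.49 and 8.24 to 10.4 and 9.68 CPM after GFP. Cd40, a receptor of the TNF receptor family, went from 0.70 and 0.88 to 8.26 and 6.95 CPM after Cre and from 0.83 and 1.46 to 1.62 and 2.60 CPM after GFP. Padi2 and Wscd2 had a smaller fall after Cre. Padi2, a peptidylarginine deiminase, fell from 8.18 and 7.86 to 0.75 and 0.32 CPM after GFP and only to 4.68 and 4.40 CPM, from 9.91 and 10.0 CPM, after Cre. Wscd2 fell to 4.16 and 3.38 CPM after GFP and to 18.2 and 17.1 CPM after Cre, from about the same levels without IL-1β (29.8 and 33.1, and 30.5 and 28.7 CPM).

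Among rises that vanished, the 4 Cre libraries lay close to the 2 GFP libraries without IL-1β for Dio2. For other genes, such as Gpr84, Slc16a1 and Nmnat3, all 4 Cre libraries lay below those GFP libraries. Dio2, the deiodinase that activates thyroid hormone, was at 4.25 and 3.52 CPM in GFP cells and at 33.2 and 33.1 CPM with IL-1β. After Cre it was at 4.02 and 3.84 CPM without and at 4.97 and 4.26 CPM with IL-1β. The response was 0.24 ± 0.16 after Cre against 3.07 ± 0.14 after GFP, a difference of -2.83 ± 0.22 (adjusted p = 8.5e-13). Gpr84, a receptor for medium-chain fatty acids, rose from 4.04 and 3.03 to 26.8 and 25.9 CPM after GFP and was at 2.17 and 1.92 CPM without and 1.99 and 2.64 CPM with IL-1β after Cre. Slc16a1, the transporter MCT1 for lactate and other monocarboxylates, rose from 143 and 139 to 328 and 322 CPM after GFP and stayed between 119 and 124 CPM in the 4 Cre libraries, a difference of -1.22 ± 0.06 (adjusted p = 2.5e-17). Plk2, a kinase among the p53 targets, rose from 154 and 147 to 284 and 266 CPM after GFP and stayed between 151 and 164 CPM after Cre. Nmnat3, which makes NAD from nicotinamide mononucleotide in mitochondria, rose from 16.1 and 18.4 to 51.8 and 80.8 CPM after GFP and stayed between 3.37 and 4.37 CPM after Cre, below every GFP library. Gda, Gjb2, Dnmt3l and Pdzrn4 had differences of -2.94 ± 0.53, -2.73 ± 0.50, -2.58 ± 0.52 and -2.57 ± 0.37, at no more than 13.3 CPM in any library.

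Falls that vanished included Myh14, a nonmuscle myosin heavy chain, at 27.6 and 27.0 CPM in GFP cells and 5.16 and 5.39 CPM with IL-1β. Its 4 Cre libraries lay between 24.9 and 26.7 CPM, and the responses differed by 2.44 ± 0.15 (adjusted p = 2.3e-15). Rflna fell from 15.9 and 15.3 to 3.91 and 3.96 CPM after GFP and was at 9.70 and 13.1 CPM without and 9.85 and 10.1 CPM with IL-1β after Cre. Camk2a, a calcium and calmodulin-dependent kinase, fell from 4.30 and 5.63 to 1.83 and 1.82 CPM after GFP and stood between 5.97 and 8.18 CPM after Cre. Angpt4 and Rcsd1 had differences of 2.44 ± 0.40 and 1.67 ± 0.25. Atp8b5 was called as well, but 1 GFP library without IL-1β stood at 35.8 CPM and the other at 0.39 CPM, and the difference of 3.65 became 0.50 without Cre replicate 2.

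Rises that appeared after Cre were led by genes at low levels in all 4 GFP libraries. Hoxd9, a homeobox transcription factor, was at 0.31 and 0.43 CPM in GFP cells, 0.17 and 0.32 CPM with IL-1β, 12.1 and 17.8 CPM in Cre cells and 86.9 and 145 CPM in Cre cells with IL-1β. The Cre libraries were thus apart from the GFP libraries before IL-1β was given, by a log2 difference of 5.28 (adjusted p = 3.1e-22). Tmem40 went from 3.86 and 4.00 to 27.9 and 26.1 CPM after Cre and was at 0.52 to 1.52 CPM after GFP. Tfap2c, the transcription factor AP-2γ, went from 1.39 and 1.56 to 11.4 and 9.94 CPM after Cre and was at 0.26 to 0.65 CPM after GFP. Trpv3, a cation channel, went from 0.37 and 0.52 to 10.6 and 11.6 CPM after Cre. Bpifb5 went from 1.63 and 1.60 to 18.6 and 20.1 CPM after Cre, with 7 and 2 counts in the GFP groups without and with IL-1β. Unc13b, which primes vesicles for release, was the exception in that Cre cells without IL-1β, at 1.53 and 1.20 CPM, were not above GFP cells, at 3.83 and 1.25 CPM, and it reached 7.61 and 8.57 CPM with IL-1β. Of the 1133 rises that appeared, 345 (30.5%) were higher and 37 (3.27%) lower in Cre than in GFP cells already without IL-1β, against 13.2% and 13.5% of all genes tested.

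Falls that appeared after Cre included genes whose other 3 groups lay close together. Tnfrsf11b, which encodes osteoprotegerin, the soluble decoy receptor of RANKL, was at 71.1 and 66.1 CPM in GFP cells, 68.7 and 59.1 CPM with IL-1β, and 74.7 and 66.0 CPM in Cre cells. With IL-1β after Cre it was at 7.92 and 8.79 CPM, below all 6 other libraries. The response was -3.09 ± 0.08 after Cre and -0.10 ± 0.07 after GFP, a difference of -2.99 ± 0.11 (adjusted p = 1.4e-21). Adgrg6, an adhesion G protein-coupled receptor of growth plate cartilage, lay between 209 and 235 CPM in these 6 libraries and at 52.1 and 51.1 CPM with IL-1β after Cre. Unc5c, a netrin receptor, lay between 79.5 and 89.6 CPM in the 4 GFP libraries, at 56.3 and 51.5 CPM after Cre, and IL-1β brought the latter to 11.6 and 11.5 CPM. Bdnf, brain-derived neurotrophic factor, and Flrt3 fell from 5.97 and 5.52 to 2.07 and 1.58 CPM and from 4.77 and 4.40 to 1.90 and 1.06 CPM after Cre. Kctd4 fell from 4.31 and 4.76 to 0.77 and 0.44 CPM. Pappa, a metalloproteinase that cleaves IGF-binding proteins, fell slightly after GFP (-0.18 ± 0.06) and from 94.4 and 88.1 to 14.8 and 15.0 CPM after Cre, so that it counts among the persisted genes with a called difference of -2.44 ± 0.09.

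Genes that reversed toward a rise after Cre included Ngfr, the low-affinity neurotrophin receptor p75. It went from 4.12 and 6.18 to 2.79 and 3.64 CPM after GFP and from 28.0 and 29.7 to 157 and 170 CPM after Cre, a difference of 3.14 ± 0.17 (adjusted p = 1.6e-16). Lamb3, a laminin chain of epithelial basement membranes, fell from 19.0 and 19.4 to 10.5 and 10.7 CPM after GFP and rose from 38.9 and 39.2 to 176 and 182 CPM after Cre. Tinagl1, a basement membrane protein, went from 61.9 and 67.2 to 54.1 and 50.1 CPM and from 245 and 261 to 1147 and 1228 CPM. Arc, an immediate early gene, went from 7.84 and 8.18 to 6.28 and 4.29 CPM and from 10.5 and 11.8 to 54.6 and 52.3 CPM. Sh3tc1 and Sult2b1 were at 0.37 to 0.92 CPM and 0.39 to 1.17 CPM after GFP and reached 19.1 and 18.4 CPM and 12.1 and 9.94 CPM with IL-1β after Cre.

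Genes that reversed toward a fall included Chl1, a cell adhesion molecule of the L1 family, which rose from 8.96 and 7.37 to 26.3 and 25.9 CPM after GFP and fell from 13.6 and 10.1 to 2.98 and 2.29 CPM after Cre. The responses differed by -3.84 ± 0.20 (adjusted p = 4.6e-17). Nt5e, the ectonucleotidase CD73, which makes adenosine and can act on extracellular nicotinamide mononucleotide, rose from 121.97 and 122.99 to 170.03 and 166.33 CPM and fell from 83.7 and 83.9 to 30.7 and 27.3 CPM. Anxa8, Fat4, Robo1 and Sybu had differences of -2.02 ± 0.10, -1.67 ± 0.07, -1.69 ± 0.10 and -2.18 ± 0.30.

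Slc7a11, the cystine and glutamate exchanger that supplies cysteine for glutathione, rose from 49.7 and 42.7 to 221 and 237 CPM after GFP and was at 36.0 and 34.5 CPM without and 33.0 and 29.5 CPM with IL-1β after Cre. The small fall after Cre, -0.17 ± 0.07, was no longer called with DESeq2 (adjusted p = 0.077), with voom weights (adjusted p = 0.061) or without the block (adjusted p = 0.148), nor without Cre replicate 1, Cre replicate 2 or Cre + IL-1b replicate 2 (adjusted p up to 0.305), while the difference of -2.47 ± 0.09 was called in each alternative. Its upstream window is shown because the gene is a known target of the amino acid response, and the capitals mark both copies of the response element core TGATGNAA, one on each strand, at chr3:50443614-50443863 on the - strand of GRCm38.p6. The core was found in 2.01% of all windows searched. It was in 1.8% of the 222 windows of genes that, like Slc7a11, were called as rising after GFP and falling after Cre. The share was 2.48% for vanished rises and 3.15% for genes that fell in both arms, and none of these shares was tested.
Slc7a11: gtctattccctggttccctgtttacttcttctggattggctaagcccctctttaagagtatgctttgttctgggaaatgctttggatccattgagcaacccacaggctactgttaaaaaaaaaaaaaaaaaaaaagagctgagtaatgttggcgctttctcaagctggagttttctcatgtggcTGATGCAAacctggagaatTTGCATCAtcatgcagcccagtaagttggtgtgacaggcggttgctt

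**Figure D3:**
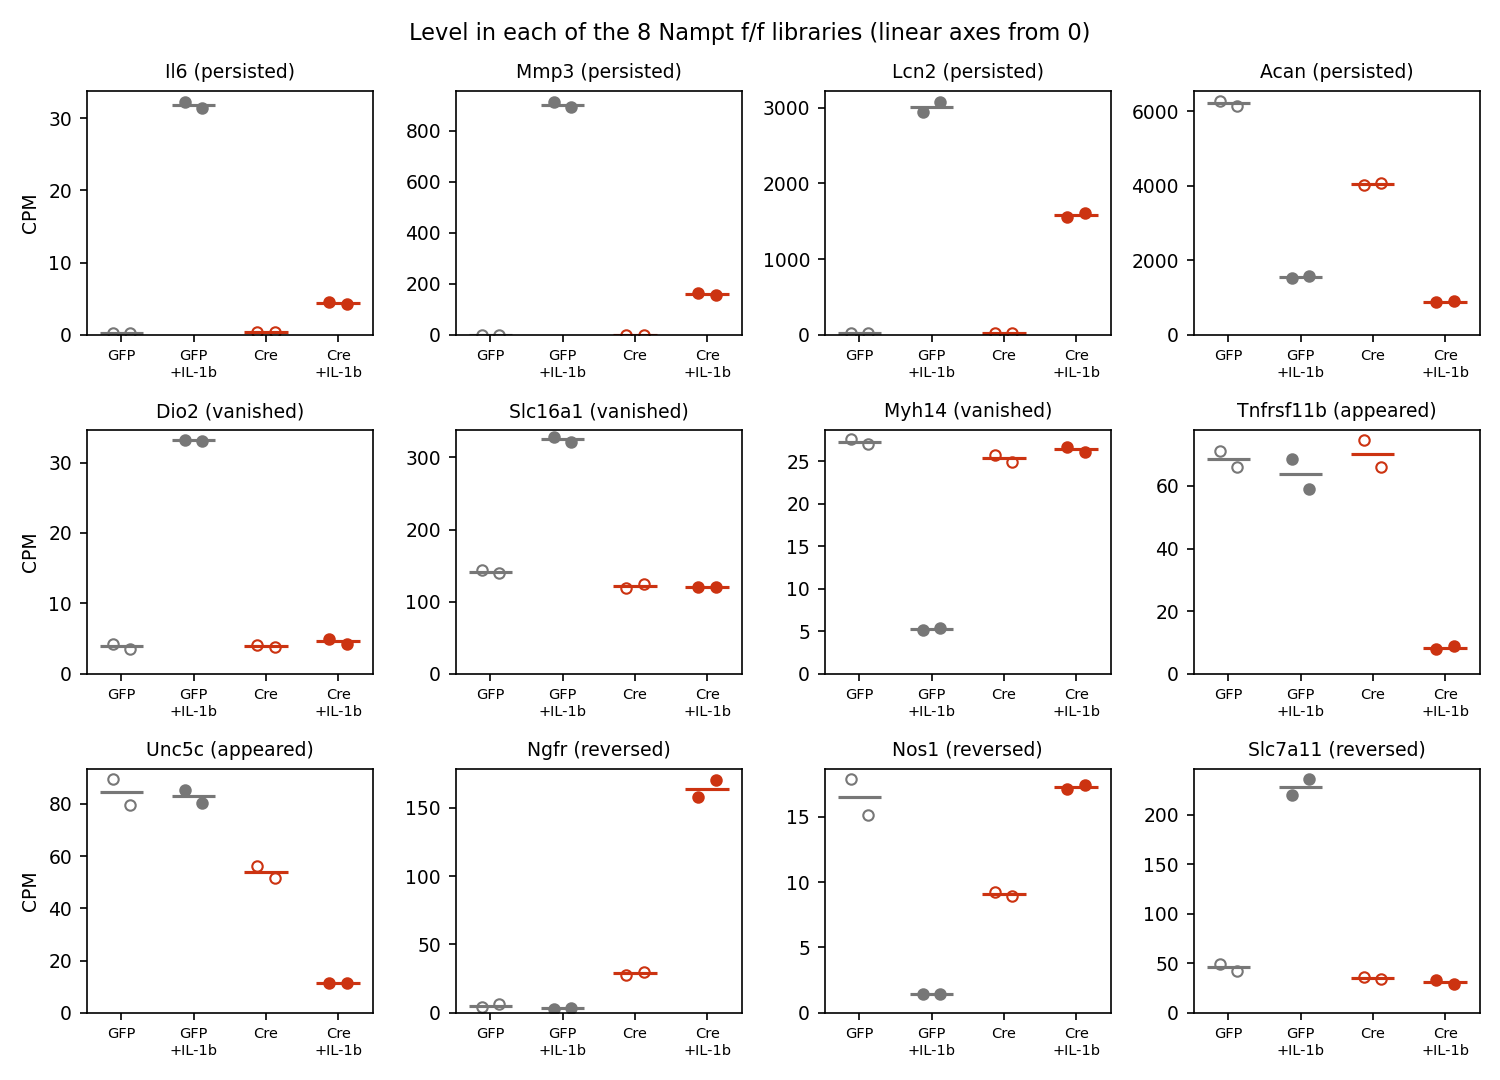
TMM-scaled CPM (vertical axes from 0) of 12 genes in each of the 8 Nampt f/f libraries (points, 2 per group, with bars at the mean) under GFP (grey) or Cre (red), without (open) and with (filled) IL-1β. Dio2 and Slc16a1 rise only with IL-1β after GFP, Tnfrsf11b is low only with IL-1β after Cre, Unc5c is lower in Cre cells and lowest there with IL-1β, Nos1 falls with IL-1β after GFP and rises after Cre, and Slc7a11 rises after GFP and is slightly lower after Cre.

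Genes of energy metabolism differed between the arms. Of 79 nuclear genes for oxidative phosphorylation subunits tested, 60 (75.9%) fell and none rose with IL-1β after GFP, where 23.5% and 22.9% of all genes did. After Cre 19 (24.1%) fell, near the 24.9% of all genes, and 11 (13.9%) rose, where 29.7% did. The difference was more positive after Cre in 38 and more negative in none, against 18.8% and 16.2% of all genes. The median log2 fold change was -0.30 after GFP and -0.04 after Cre, so single changes were small. Sdhb, a subunit of complex II, fell from 100 and 100 to 58.0 and 59.6 CPM after GFP and went from 91.1 and 93.9 to 101 and 87.8 CPM after Cre. Atp5g1, a subunit of the ATP synthase ring, fell from 147 and 146 to 86.8 and 87.7 CPM and went from 124 and 130 to 127 and 126 CPM. Uqcrc1, of complex III, fell slightly after GFP and rose after Cre, from 132 and 142 to 155 and 164 CPM. Of the 13 genes encoded by mitochondrial DNA, 4 (30.8%) rose and 2 (15.4%) fell after GFP, not far from the 22.9% and 23.5% of all genes. After Cre 1 (7.69%) rose and 7 (53.8%) fell, where 29.7% and 24.9% did. The difference was more negative in 5 (38.5%) and more positive in none, against 16.2% and 18.8% of all genes.

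Glycolysis and lactate genes rose in most cases in both arms. Of 25 tested, 18 rose and 3 fell after GFP, where 22.9% and 23.5% of all genes did. After Cre 17 rose and 4 fell, where 29.7% and 24.9% did. The response was more negative after Cre in 13 and more positive in 7, against 16.2% and 18.8% of all genes. Ldha, lactate dehydrogenase A, went from 991 and 943 to 1447 and 1370.2 CPM after GFP and from 1064 and 1013 to 1162 and 1081 CPM after Cre. Its log2 fold change of 0.11 ± 0.03 after Cre, against 0.54 ± 0.03, was not called without the block (adjusted p = 0.174) or over the 24 floxed libraries (adjusted p = 0.407), nor without Cre replicate 1, Cre + IL-1b replicate 1, GFP replicate 2 or GFP + IL-1b replicate 1 (adjusted p up to 0.185). Hk2, hexokinase 2, rose by 0.21 ± 0.05 after Cre and 0.55 ± 0.05 after GFP, and the call after Cre was lost over the 24 floxed libraries (adjusted p = 0.083) and without Cre + IL-1b replicate 1 (adjusted p = 0.065). Slc16a3, the lactate exporter MCT4, went from 88.7 and 89.8 to 275 and 266 CPM after GFP and from 118.1 and 122.6 to 210 and 217 CPM after Cre. Pfkfb4, which sets fructose 2,6-bisphosphate, rose after Cre, from 10.8 and 10.7 to 44.3 and 43.3 CPM, and was between 5.28 and 6.20 CPM in the GFP libraries, a difference of 2.09 ± 0.18.

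Of 14 genes tested for NAD synthesis and salvage, 6 (42.9%) rose and none fell after GFP, where 22.9% and 23.5% of all genes did, and 4 (28.6%) rose and 2 (14.3%) fell after Cre, where 29.7% and 24.9% did. The 2 that fell were Nampt and Nt5e, and the call for Nampt was lost with voom weights (adjusted p = 0.078), over the 24 floxed libraries (adjusted p = 0.075) and without Cre replicate 2 (adjusted p = 0.126) or Cre + IL-1b replicate 2 (adjusted p = 0.237). Nmnat2, the cytosolic enzyme that follows NAMPT, rose in both arms, to 2.29 and 2.79 CPM after GFP and 8.37 and 9.89 CPM after Cre, and the difference of 0.13 ± 0.42 was not called (adjusted p = 0.85). Nadk2, the mitochondrial NAD kinase, rose to 30.6 and 28.3 CPM after GFP and to 20.3 and 16.6 CPM after Cre, where the call was lost without the block (adjusted p = 0.151), with DESeq2 (adjusted p = 0.110), with no filter (adjusted p = 0.069), over the 24 floxed libraries (adjusted p = 0.088) and without any of 5 single libraries (highest adjusted p = 0.303, without Cre + IL-1b replicate 1). Of 24 NAD consumers, 5 (20.8%) rose and 2 (8.33%) fell after GFP, where 22.9% and 23.5% of all genes did. After Cre 8 (33.3%) rose and 4 (16.7%) fell, where 29.7% and 24.9% did, so the rises lay near the background in both arms. Cd38, the main NAD glycohydrolase of the cell surface, went from 1.77 and 0.96 to 9.45 and 6.90 CPM after Cre and did not pass 0.58 CPM after GFP, and the call on its difference was lost without the block (adjusted p = 0.107), over the 24 floxed libraries (adjusted p = 0.095) and without GFP replicate 1 (adjusted p = 0.543) or Cre + IL-1b replicate 2 (adjusted p = 0.055). Sirt2, a cytosolic NAD-dependent deacetylase, went from 59.2 and 57.3 to 99.8 and 104 CPM after Cre and from 57.9 and 57.3 to 54.1 and 49.2 CPM after GFP, and it overlaps Nfkbib on the other strand.

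Integrated stress response genes fell with IL-1β in both arms, 25 of 30 (83.3%) after GFP and 28 of 30 (93.3%) after Cre. Of all genes 23.5% and 24.9% fell. Among the persisted genes of this list 11 fell further after Cre and 3 less, where 542 and 233 of all 2150 persisted falls did. Trib3, a pseudokinase induced by CHOP and ATF4, fell from 173 and 173 to 107 and 110 CPM and from 132 and 125 to 43.4 and 41.5 CPM. Shmt2, the mitochondrial serine hydroxymethyltransferase, was not called after GFP (583 and 565, and 575 and 537 CPM) and fell after Cre, from 507 and 507 to 333 and 328 CPM. Of 40 DNA replication and mitosis genes, 21 (52.5%) rose and 6 (15.0%) fell after GFP, where 22.9% and 23.5% of all genes did. After Cre 13 (32.5%) rose, near the 29.7% of all genes, and 14 (35.0%) fell, where 24.9% did. The difference was more negative in 18 (45.0%) and more positive in 3 (7.5%), against 16.2% and 18.8% of all genes. Mcm6, a subunit of the replicative helicase, rose from 108 and 95.6 to 127 and 122 CPM after GFP and fell from 105 and 92.8 to 81.3 and 78.5 CPM after Cre, whereas Ccne1, cyclin E1, rose further after Cre, to 108 and 99.6 CPM. Of 29 p53 targets, 10 (34.5%) rose and 11 (37.9%) fell after GFP and 11 (37.9%) rose and 8 (27.6%) fell after Cre, the last near the 24.9% of all genes. In Cre against GFP cells without IL-1β 19 (65.5%) were higher and 1 (3.45%) lower, against 13.2% and 13.5% of all genes.

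Of 32 interferon-stimulated genes, 7 (21.9%) were higher and 2 (6.25%) lower after GFP, where 22.9% and 23.5% of all genes were, and 7 (21.9%) were higher and 6 (18.8%) lower after Cre, where 29.7% and 24.9% were. The difference was called in 3, more positive in 1 (3.12%) and more negative in 2 (6.25%), against 18.8% and 16.2% of all genes. Of 18 genes of MHC class I presentation, 11 (61.1%) rose after GFP, where 22.9% of all genes did, and 4 (22.2%) fell, near the 23.5% of all genes. After Cre 15 (83.3%) rose and 1 (5.56%) fell, where 29.7% and 24.9% did. The difference was more positive in 6 (33.3%) and more negative in none, against 18.8% and 16.2% of all genes. H2-K1, a class I heavy chain whose reads may be shared with related genes, went from 46.2 and 55.4 to 94.0 and 103 CPM and from 52.4 and 63.2 to 155 and 163 CPM. Calr, the chaperone calreticulin, fell from 960 and 911 to 749 and 719 CPM after GFP and rose from 956 and 917 to 1205 and 1191 CPM after Cre.

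**Figure D4:**
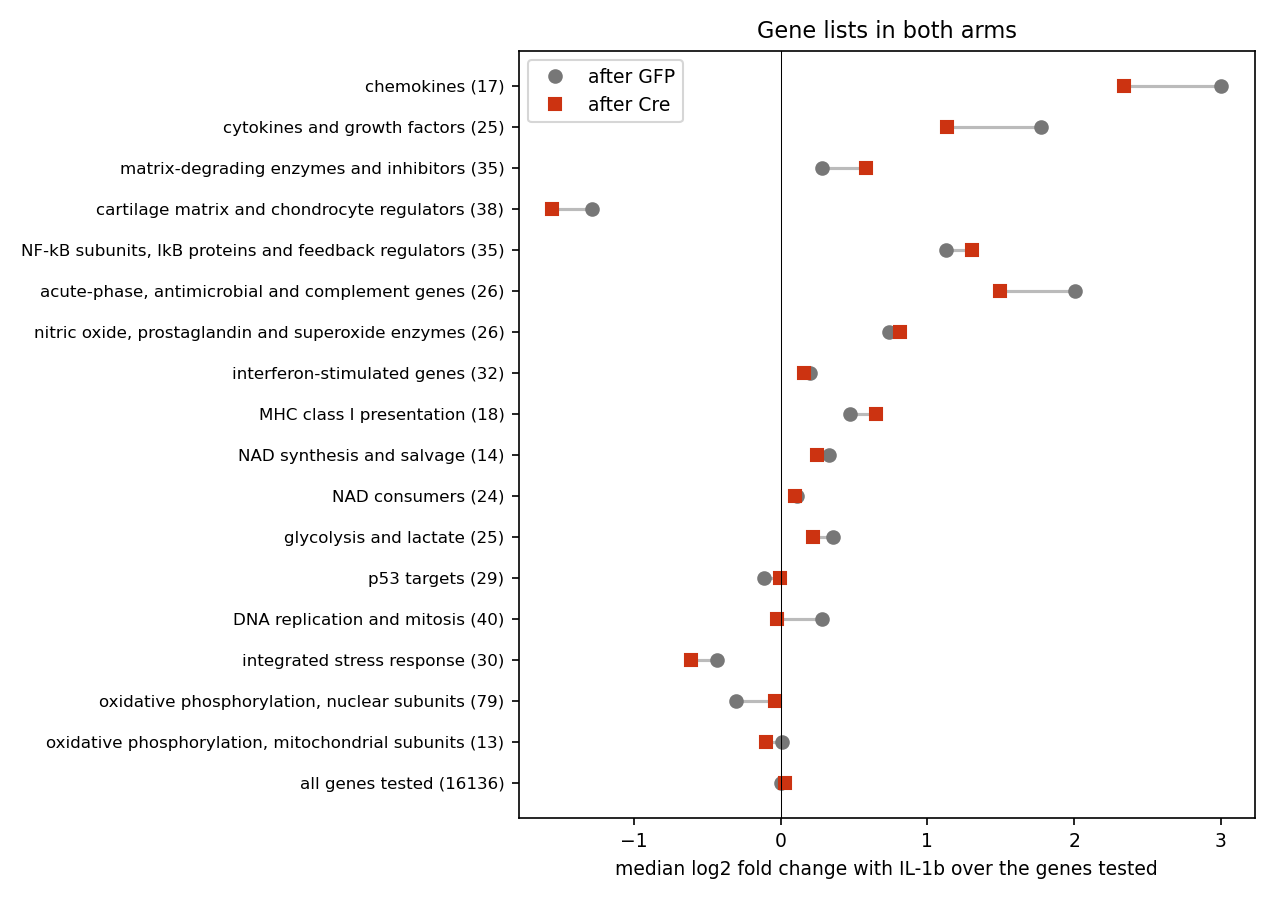
Median log2 fold change with IL-1β (horizontal axis) over the tested members (number in parentheses) of each gene list after GFP (grey circles) and after Cre (red squares), with all genes tested at the bottom. The chemokine, cytokine and acute-phase medians are lower after Cre, the cartilage matrix and integrated stress response medians are further below 0, and the nuclear oxidative phosphorylation median moves from -0.30 to -0.04.

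The size of what was left was read on a list that no NAMPT flox library chose. The 606 genes with a 2-fold rise or more in the GFP arm of both the LDHA flox and the NFKBIZ flox line were taken, of which 600 were tested. After GFP 581 of them rose in NAMPT flox cells and after Cre 464 rose and 21 fell, against 22.9%, 29.7% and 24.9% of all genes. Their median log2 fold change was 1.69 after GFP and 1.29 after Cre. The response was more negative after Cre in 280 and more positive in 60, against 16.2% and 18.8% of all genes. Of the 600 genes 456 persisted, 74 vanished and 20 reversed, against 27.0%, 7.16% and 5.03% of all genes. Of 353 genes with a 2-fold fall or more in both lines 349 were tested. After GFP 323 fell and after Cre 273 fell and 24 rose, against 23.5%, 24.9% and 29.7% of all genes. Their medians were -1.48 after GFP and -1.43 after Cre. The response was more positive after Cre in 115 and more negative in 87, against 18.8% and 16.2% of all genes. Of these 349 genes 260 persisted, 29 vanished and 23 reversed. In the lines that chose the list, the median of the rises after Cre was 1.38 in LDHA flox and 1.05 in NFKBIZ flox cells.

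The change of the response with Cre was then compared with that of the other 2 floxed lines, in 1 fit of 24 libraries. Only 2 of 16727 genes (0.012%) differed between NAMPT flox and LDHA flox cells, and 806 had an unadjusted p of 0.05 or less. They were Ldha, the gene deleted in the other line (0.90 ± 0.14), and Tnfrsf11b (-0.99 ± 0.16), each with an adjusted p of 0.032. In LDHA flox cells Tnfrsf11b also fell with IL-1β after Cre, from 73.0 and 67.3 to 16.6 and 16.8 CPM, where it was between 48.4 and 53.8 CPM after GFP. The 2 calls were not kept in every alternative, with a count of 0 without the block and 9 by voomWithQualityWeights. The 95% interval of a gene's difference between the lines reached a median of 0.61 to either side on the log2 scale, with genes of extreme SE left out. That interval is not adjusted for the number of genes. The calls were adjusted over 16727 genes, so differences well above 0.61 could go uncalled. The low count thus does not show that the 2 lines responded alike. For Mmp3 the difference was -0.97 with an interval from -1.93 to -0.01, for Il6 -1.70 from -3.23 to -0.16 and for Lcn2 0.26 from -0.20 to 0.72, none of them called after adjustment.

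Genes called in LDHA flox libraries alone went the same way in NAMPT flox cells. Of 1698 genes with a more positive response after Cre in LDHA flox cells, 1447 (85.2%) were called more positive in NAMPT flox cells, where 18.8% of all genes were, and 2 more negative. Of 1659 with a more negative response, 1373 (82.8%) were called more negative, where 16.2% of all genes were, and 1 more positive. Of the NAMPT flox classes, the reversed genes were called in the same direction in LDHA flox cells most often, 392 of the 520 rising (75.4%) and 224 of the 291 falling after Cre, and the vanished falls least often, 32.0% of 572. The background there was 10.7% more positive and 10.5% more negative. These 2 lines share no library, but both are in the same 2 library sets.

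The NFKBIZ flox line differed from NAMPT flox cells in 2043 genes (12.2%), of which 998 (5.97%) were more positive and 1045 (6.25%) more negative. Nampt in the LDHA flox and NFKBIZ flox Cre libraries without IL-1β was between 56.9 and 88.4 CPM. Lcn2, which went from 26.1 and 29.1 to 325 and 228 CPM after Cre in NFKBIZ flox cells and to 7423 and 7627 CPM after GFP, had a difference of -4.36 ± 0.16 there against -0.52 ± 0.16 in NAMPT flox cells in the same fit. The lines differed by 3.83 ± 0.22 (adjusted p = 3.7e-10). Saa3 and Chil1, a chitinase-like secreted protein, stood likewise, at -4.34 ± 0.21 and -3.82 ± 0.12 against -0.70 ± 0.22 and -0.99 ± 0.14. Fam20c, a kinase of secreted proteins, Dgat2, which makes triglycerides, and Pfkfb3 were also higher in NAMPT flox cells by 2.13 ± 0.14, 1.99 ± 0.16 and 1.64 ± 0.13. The response of these genes to IL-1β after Cre, relative to GFP, was thus more positive in NAMPT flox than in NFKBIZ flox cells. In NFKBIZ flox cells after Cre, Pfkfb3 fell with IL-1β, from 123.5 and 120.0 to 81.1 and 88.8 CPM. Dgat2 went there from 23.1 and 24.1 to 25.0 and 27.6 CPM.

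Tnfrsf11b, Npr3, the clearance receptor of natriuretic peptides, Lrrc17, Pappa, Matn3 and Unc5c were lower in NAMPT flox than in NFKBIZ flox cells, by differences from -2.05 ± 0.15 for Unc5c to -3.82 ± 0.16 for Tnfrsf11b. In NFKBIZ flox cells Tnfrsf11b went from 82.9 and 80.8 to 138 and 131 CPM with IL-1β after Cre. Mmp3 and Dio2 had a smaller rise after Cre in all 3 lines, with differences of -2.96 ± 0.36, -1.99 ± 0.32 and -3.06 ± 0.22 for Mmp3 and of -2.88 ± 0.20, -2.53 ± 0.22 and -3.00 ± 0.20 for Dio2 in NAMPT, LDHA and NFKBIZ flox cells. Slc7a11 stood at -2.52 ± 0.11, -2.13 ± 0.11 and -2.74 ± 0.12. Hapln1 stood at -2.32 ± 0.18, -2.47 ± 0.18 and -0.37 ± 0.17, and Lamb3 at 3.00 ± 0.17, 2.59 ± 0.16 and 0.50 ± 0.17.

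Keratins were high after Cre in the NAMPT flox and LDHA flox lines and low in the NFKBIZ flox line. With IL-1β after Cre, Krt8 was at 39.5 and 40.0 CPM in NAMPT flox, 33.1 and 29.1 CPM in LDHA flox and 0.35 and 0.088 CPM in NFKBIZ flox cells, and Krt7 at 93.1 and 83.3, 82.8 and 77.1, and 0.78 and 0.97 CPM. Of the persisted rises with a smaller response after Cre in NAMPT flox cells, 169 of 364 tested (46.4%) were also called smaller in NFKBIZ flox cells, where 3.5% of all genes had a more negative response. Of the rises that appeared, 15 of 1056 (1.42%) were called more positive there, against 1.69% of all genes, and of the persisted falls that were larger after Cre 18 of 541 (3.33%) were called more negative. For these 2 classes the share called in the same direction in NFKBIZ flox cells was thus near the background. In the opposite direction, 6 of the rises that appeared (0.568%) were called more negative, against 3.5% of all genes. Of the persisted falls 38 (7.02%) were called more positive, against 1.69% of all genes. All 8 NFKBIZ flox libraries belong to library set 2, which also holds replicate 2 of each NAMPT flox group. Within the 16 floxed libraries of that set, with 1 NAMPT flox library per group, assumed to vary like the NFKBIZ flox replicates, 248 genes differed between the lines (2369 at an unadjusted p under 0.05). Of 2042 genes called over 24 libraries and tested there, 2041 had the same sign. The 16 libraries are among the 24 that made those calls, so this shared sign is not independent of the calls. Lcn2 differed by 3.86 ± 0.37 (adjusted p = 0.00053) and Tnfrsf11b by -3.56 ± 0.23 (adjusted p = 2.5e-05) within the set.

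**Figure D5:**
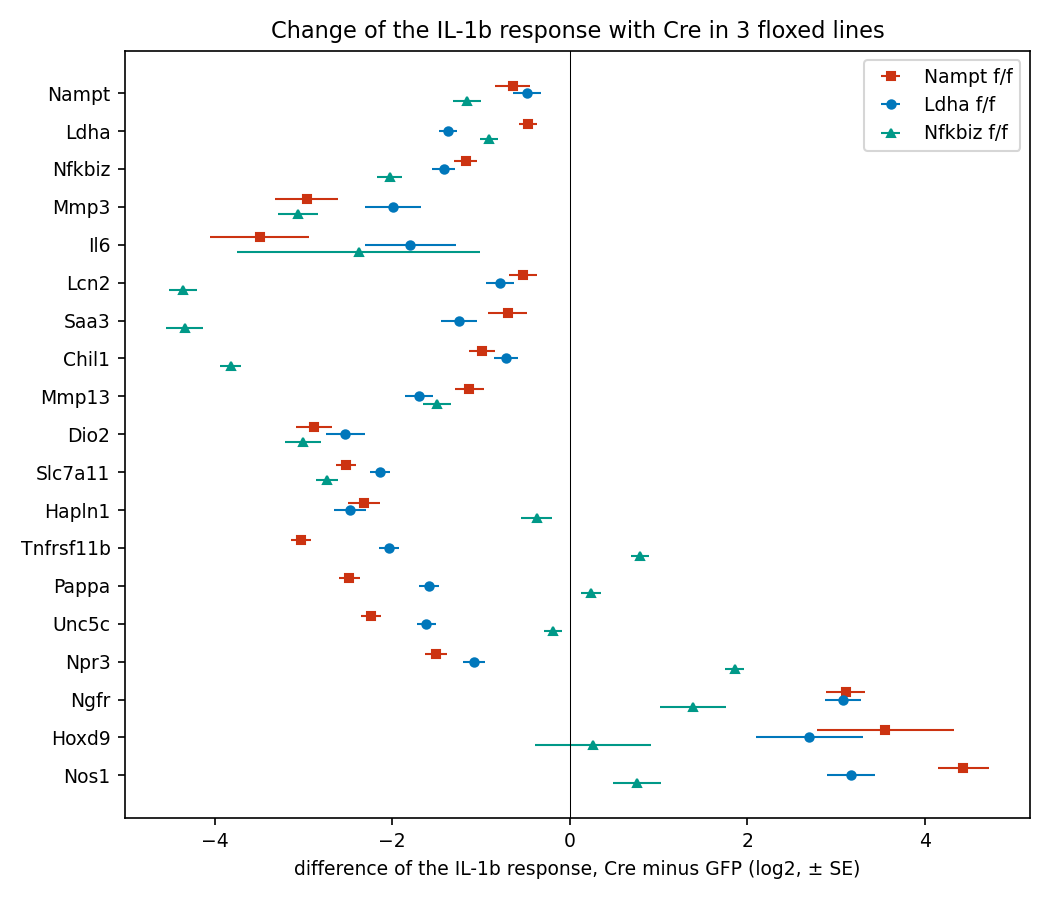
Difference of the IL-1β response, Cre minus GFP, on the log2 scale (horizontal axis, bars ± SE) for 19 genes in Nampt f/f (red squares), Ldha f/f (blue circles) and Nfkbiz f/f (green triangles) cells, from 1 fit of 24 libraries. Lcn2, Saa3 and Chil1 lie far below the other lines in Nfkbiz f/f cells, Tnfrsf11b and Npr3 lie above 0 in Nfkbiz f/f cells and below 0 in the other lines, and Mmp3, Dio2 and Slc7a11 lie below 0 in all 3 lines.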

How the data were processed

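RNA was measured in primary sternal chondrocytes with a ribosomal RNA depletion kit, 2 libraries per group. The authors aligned reads with STAR (2.0.4b in the submitters' processing notes) to GRCm38 with Ensembl 76 annotation and counted unique, unambiguous reads with featureCounts (1.45 in those notes), and use of strand is not given in the sources used here. The authors deposited counts, CPM and RPKM per gene for 41388 genes. The deposited CPM equalled count over library total in all 32 libraries, and the deposited RPKM was not used. Only the counts were tested. Totals ran from 15830658 to 39959888 in the 8 NAMPT flox libraries. Symbols came from GENCODE M21 (40340 genes).

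Groups came from the labels. Counts of the 8 NAMPT flox libraries, less 355 ribosomal RNA genes, were scaled by TMM, kept above 1 CPM in at least 1 library (16136 genes) and fitted with edgeR 4.0.16 in R 4.3.3 (4 groups plus library set as a block, quasi-likelihood test, Benjamini-Hochberg, 0.05). SE is the log2 fold change over the square root of F, which is approximate at low counts. CPM printed are TMM-scaled. The GFP and Cre contrasts share no library but share the spread estimate and the block. The study's methods used voomWithQualityWeights (limma 3.58.1), tried here as an alternative beside DESeq2 1.42.0, other scalings and filters, no block, all 24 floxed libraries and leaving out each library. Library sets are the 2 numbering series of the sample titles, and the labels do not say what each shares. They paired the samples: the set differences of the groups correlated at 0.45 to 0.61 over 6 group pairs and 10852 genes. On simulated counts with 200 genes changed 2-fold, the Cre contrast recovered 189 with 16 false calls and the difference 163 with 11. The 200 genes were drawn only from well-counted genes, and no effect of the library set was put in. Recovery of genes at low counts was thus not measured. The labels do not say whether replicates were separate cultures, so p-values measure only the spread between these libraries. The median squared difference between replicates over sampling noise was 3.60 to 5.05 in the NAMPT flox groups, so no pair agreed within sampling noise. It was 3.13 to 10.0 in the other floxed groups and 32.3 to 56.6 in the wild-type groups, so the p-values rest on a spread much smaller than that between wild-type replicates.

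The comparison, the gene lists and the rule for naming genes were chosen with earlier results of these data known. The rule named the deleted gene, 9 genes of the study's question, 6 genes per class and direction, and up to 6 members of each list by difference or fold change. Keratins and the 4 promoters were chosen after their values were seen. Promoter sequences are from RefSeq on GRCm38.p6, present for 11335 of the genes tested. Values of 1 gene of the cytokine list are not reported here.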

Additional observations from a re-analysis of the deposited data

Results flagged for a closer look

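The response to IL-1β was tested for a difference between the arms of NAMPT flox cells, and 5648 genes passed (3552 without the replicate block). The change of the response with Cre was tested between lines, and 2 genes passed between NAMPT flox and LDHA flox cells and 2043 between NAMPT flox and NFKBIZ flox cells. Against LDHA flox cells, Ldha was higher by 0.896 and Tnfrsf11b had a difference of -0.989 on the log2 scale. Against NFKBIZ flox cells, Lcn2 (3.83), Saa3 (3.64), Chil1 (2.84), Fam20c (2.13), Dgat2 (1.99) and Pfkfb3 (1.64) had a more positive value in NAMPT flox cells. Tnfrsf11b (-3.82), Npr3 (-3.37), Lrrc17 (-3.19), Pappa (-2.72), Matn3 (-2.48) and Unc5c (-2.05) had a more negative one. Fam20c had a response that was not called as different between Cre and GFP in NAMPT flox cells in that fit, at 0.14 ± 0.10. Groups of 2 libraries were too small to look for a library apart from the others.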

How the results depend on the processing

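Of 307 values of named genes followed over 16 alternatives, 258 kept their call in each, none changed sign, and 170 of 4909 single values lost the call. Without the replicate block, which the pairing of the library sets supports, the difference of responses was called in 3552 genes, vanished genes numbered 738 and reversed genes 441. Of the genes so classed without the block, 583 vanished and 441 reversed genes were in the same class with it. Over all 24 floxed libraries reversed genes numbered 431. Leaving out 1 library gave 4527 to 4986 genes for the difference and 620 to 683 reversed genes. Between NAMPT flox and LDHA flox cells the count was 0 with no replicate block, 1 with filterByExpr, 9 with voomWithQualityWeights 1 within library set 2 alone and 0 to 2 when a library was left out, so that neither gene was called in each of these. Between NAMPT flox and NFKBIZ flox cells it was 1427 to 1569 when a library was left out and 248 within library set 2 alone, a setting chosen after seeing the data that has fewer libraries. The list chosen in the other lines had medians at a log2 threshold of 2 of 2.82 after GFP and 1.94 after Cre for rises, and -2.53 and -2.589 for falls. Without the block its median was 1.32 for rises after Cre, -1.50 for falls after GFP and -1.435 for falls after Cre. Leaving out 1 library gave 1.69 to 1.754 and 1.239 to 1.32 for rises, and -1.511 to -1.468 and -1.479 to -1.396 for falls, after GFP and Cre. The cause of these changes was not tested. With 2 libraries per group, and counts from 0 to 10 in some groups without IL-1β, fold changes of Vnn3, Acod1, Nos2, Cxcl2 and Tnf are limited by depth.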
